A study of Mus musculus with 12 samples.

Results

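The genes followed here, 10 in all, build the neuronal microtubule and the growth cone, and were read across primary mouse motoneuron cultures: Tubb3, Tuba1a, Tubb2b, Map2, Mapt, Map1b, Stmn2, Gap43, Crmp1 and Dpysl3. They were taken by gene symbol. All 10 were found, each under 1 of the 39174 gene identifiers of the deposited tables, and all 10 were among the 14982 genes tested. The cultures came from FVB mice. Every group, controls included, carried the human SMN2 transgene. Smn+/+;SMN2 cultures have intact mouse Smn1 and are called control here. Smn-/-;SMN2 cultures lack Smn1 and are called SMA, for spinal muscular atrophy, the motoneuron disease caused by loss of the survival motor neuron protein. Both genotypes were cultured without or with R-Roscovitine at 0.5 µM. This compound blocks cyclin-dependent kinases, Cdk5 among them, and prolongs the opening of Cav2 calcium channels. Each of the 4 groups has 3 libraries, numbered 1 to 3. Neither the age of the embryos nor the duration of treatment is given in the sources used here. The labels do not tell whether replicate libraries stem from distinct cultures, and p-values therefore measure only the spread between libraries, which may be technical.

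A neuron extends its axon on microtubules, hollow polymers of alpha and beta tubulin that grow and shrink at their plus ends. Microtubule-associated proteins stabilise and space them, stathmins bind free tubulin dimers and destabilise the polymer, and collapsin response mediator proteins (CRMPs) carry guidance signals to tubulin and actin in the growth cone, the motile tip of the axon. Cdk5 and Gsk3 phosphorylate several of these proteins. Shortened axons and altered growth cones are known from motoneurons that lack the survival motor neuron protein.

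Values are FPKM, fragments per kilobase of transcript and M fragments mapped, a level per length that can be set side by side between genes. Depth was 19.5 to 28.7 M reads per library as read from the steps of low FPKM, with a mean of 26.5 ± 1.99 M in control and 22.2 ± 2.05 M in SMA libraries (SD, n = 6 each). Smn1 read 30.9 to 51.2 FPKM in control and 5.04 to 8.58 FPKM in SMA libraries, which matched the labels. Several defining markers of motoneurons (Chat, Slc5a7, Mnx1, Isl1, Isl2, Lhx3 and Lhx4) stayed under 1 FPKM in all 12 libraries. They are 7 of the 17 listed motoneuron markers found. The other 10, Prph and Ret among them, were tested, and all 17 summed to 164 to 284 FPKM per library. The cultures are called motoneuron cultures here by their label alone. Of 20 markers shared by neurons in general, none stayed under 1 FPKM in every library. Control library 1 of both treatments stood apart for the 10 genes: each of the 10 had its highest FPKM of the 12 libraries there, 5 in the untreated and 5 in the treated library. The main differences are given with and without these libraries.

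The tubulins of the set share much of their sequence with other tubulins, which bears on what their values count. The ends of the beta tubulin coding sequences are shown because they encode the acidic tails that differ most between tubulin isotypes. Each is the last 60 coding bases before the stop codon in GENCODE M21 on GRCm38, 5′ to 3′ on the gene's own strand. Capitals mark bases that differ from Tubb2b, or have no partner in it, in a gapped alignment of the whole coding sequences. Because of the gaps, aligned bases of Tubb3 and Tubb2b need not stand at the same place in the lines.
Tubb2b, chr13:34127474-34127533 (minus strand): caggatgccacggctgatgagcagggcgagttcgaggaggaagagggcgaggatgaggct
Tubb2a, chr13:34074471-34074530 (minus strand): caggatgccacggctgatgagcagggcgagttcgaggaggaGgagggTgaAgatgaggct
Tubb3, chr8:123421620-123421679 (plus strand): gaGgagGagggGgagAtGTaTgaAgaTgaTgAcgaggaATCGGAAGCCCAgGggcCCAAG

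Over the coding sequence, Tuba1b was 98.3% and Tuba1c 97.1% identical to Tuba1a, and Tubb2a was 96.5% identical to Tubb2b. Tubb3, the beta tubulin used as a marker of neurons, was 83.6% identical to Tubb2b. Of its 60 bases shown, 29 differed from Tubb2b or had no aligned partner. Of all stretches of 50 bases in the Tuba1a transcript, 75.5% also occurred in transcripts of other genes, and 65.8% of stretches of 100 bases did. For Tubb2b the shares were 36.9% and 26.0%, whereas Tubb3, Mapt, Map1b, Gap43, Crmp1 and Dpysl3 had no such stretch. The read length is not given in the sources used here, so the levels of Tuba1a and Tubb2b are uncertain between near-identical copies. Summed with Tuba1b and Tuba1c, Tuba1a took 64.2% to 70.7% of the 3 genes' FPKM, and Tubb2b took 58.2% to 66.3% of the sum with Tubb2a. Crmp1 overlaps the Evc locus, whose mean level was 3.24 FPKM.

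**Figure D1:**
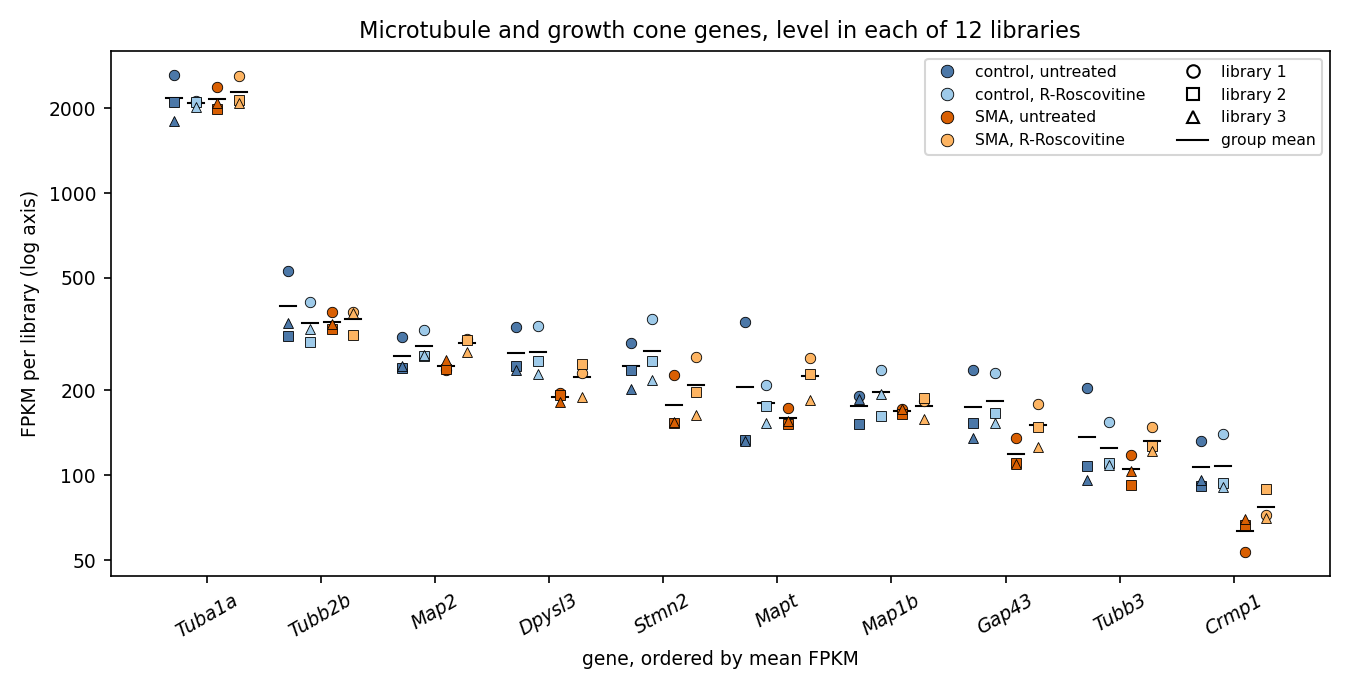
FPKM (log axis) of the 10 genes in each of the 12 libraries, ordered by mean level; colours are the 4 groups, marker shapes the library numbers and short bars the group means (n = 3). Tuba1a stood alone near 2171 FPKM, the other 9 genes lay between 53.4 and 531 FPKM, and control library 1 (dark and light blue circles) held the highest value of every gene.

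All 10 genes were abundant. Their mean FPKM over the 12 libraries ran from 88.9 ± 25.8 for Crmp1 to 2171 ± 244 for Tuba1a (SD, n = 12), the 25th most abundant of the genes tested. Tubb2b followed with 362 ± 62.8 FPKM, then Map2 with 272 ± 31.4, Dpysl3 with 239 ± 51.4 and Stmn2 with 227 ± 60.5. Mapt read 192 ± 62.5 FPKM, Map1b 180 ± 22.6, Gap43 157 ± 40.9 and Tubb3 125 ± 31.4. The range of Tuba1a was clear of all others, and the ranges of every other pair of neighbours in this order overlapped. The highest library was 1.38 times the lowest for Map2 and 2.64 times the lowest for Mapt. The interval that the authors' software attached to each value reached 0.727% to 5.41% of the value to each side and covers counting and assignment error only. The SD within a group of 3 libraries was 2.45% of the mean for Tuba1a in treated controls, the smallest, and 60.9% for Mapt in untreated controls, the largest.

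The comparison of untreated SMA with untreated control cultures shows these transcripts with and without Smn1. The growth cone genes Crmp1, Dpysl3 and Gap43 read lower in every SMA library than in any control library, at 59.3%, 70.1% and 67.7% of the control mean, and Stmn2 at 72.9% with overlapping groups. The tubulins stood at 77.0% (Tubb3), 88.3% (Tubb2b) and 98.7% (Tuba1a) of the control mean, and the microtubule-associated proteins at 78.1% (Mapt), 92.2% (Map2) and 96.1% (Map1b). None of the 10 passed limma's test at an adjusted p under 0.05, which 0.00667% of all genes did (1 gene, Smn1). At an unadjusted p under 0.05, 3 of the 10 were lower, Crmp1, Dpysl3 and Gap43, as were 6.95% of all genes. Groups without overlap, lower in SMA, were found in 12.5% of all genes and in 3 of the 10. In these bulk cultures, fewer neurons and less RNA per neuron cannot be told apart.

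Crmp1 encodes a CRMP that relays semaphorin signals in the growth cone. Its gene (ENSMUSG00000029121, protein coding) spans chr5:37242080-37292132 on GRCm38, plus strand. It read 132, 91.9 and 96.4 FPKM in untreated control libraries 1 to 3 against 53.4, 66.8 and 70.0 FPKM in their SMA counterparts. The SMA values were all below the control values, and control library 1 was the highest. The log2 difference was -0.69 ± 0.18 (SE; limma adjusted p = 0.217), the lowest of the 10 genes. Dpysl3, which encodes CRMP4, an actin- and microtubule-binding CRMP, read 335, 244 and 236 FPKM in the controls against 196, 192 and 182 FPKM in SMA. Its groups were separate as well, with SMA libraries close to each other. The log2 difference was -0.45 ± 0.16 (SE; limma adjusted p = 0.275). For both genes the groups were separate, and the differences did not pass the threshold over all genes.

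Gap43 (ENSMUSG00000047261, chr16:42248442-42340651, minus strand) encodes a membrane-bound phosphoprotein of the growing axon tip, and its levels were 236, 154 and 136 FPKM in untreated control against 135, 110 and 110 FPKM in untreated SMA libraries. The highest SMA library lay just under the lowest control library. The log2 difference was -0.48 ± 0.21 (SE; limma adjusted p = 0.332). Stmn2 (ENSMUSG00000027500, chr3:8509527-8561604, plus strand), a stathmin of axons that supports their regrowth, read 293, 237 and 202 FPKM in the controls against 226, 153 and 155 FPKM in SMA. SMA library 1 lay among the controls, and the log2 difference was -0.42 ± 0.23 (SE; limma adjusted p = 0.417).

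Mapt (ENSMUSG00000018411, chr11:104231390-104332090, plus strand), the gene of the axonal protein tau, and Tubb3 (ENSMUSG00000062380, chr8:123411424-123422015, plus strand) were much higher in untreated control library 1 than in any other untreated library. Mapt read 349, 134 and 132 FPKM in the untreated controls against 173, 152 and 156 FPKM in SMA, so that each SMA library lay above control libraries 2 and 3. Tubb3 read 204, 108 and 96.6 FPKM in the controls against 118, 92.7 and 103 FPKM in SMA. Their log2 differences were -0.15 ± 0.29 for Mapt and -0.26 ± 0.23 for Tubb3 (SE; limma adjusted p = 0.833 and 0.628). Without control library 1 the difference of Mapt was 0.29 and that of Tubb3 was 0.06, both on the other side of 0. Map2 (ENSMUSG00000015222, chr1:66175273-66442583, plus strand), whose protein spaces microtubules in dendrites, Map1b, a protein of growing axons, Tubb2b and Tuba1a differed by -0.10 to 0.04 between the genotypes on the log2 scale.

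Over the 10 genes, 9 read lower in untreated SMA cultures (10 without scaling between libraries or with quantile normalization, 6 with library weights, 2 with scaling on pan-neuronal markers). The median log2 difference was -0.21 beside -0.01 over all genes tested. Without control library 1 of both treatments, an alternative chosen after seeing the data, 4 of the 10 read lower and the median was 0.04. The 4 were Crmp1 (-0.55), Dpysl3 (-0.31), Stmn2 (-0.29) and Gap43 (-0.26), the growth cone genes and the stathmin, while the 3 tubulins and 3 microtubule-associated proteins read 0.04 to 0.29 higher in SMA. None of the 10 passed limma's test there either.

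**Figure D2:**
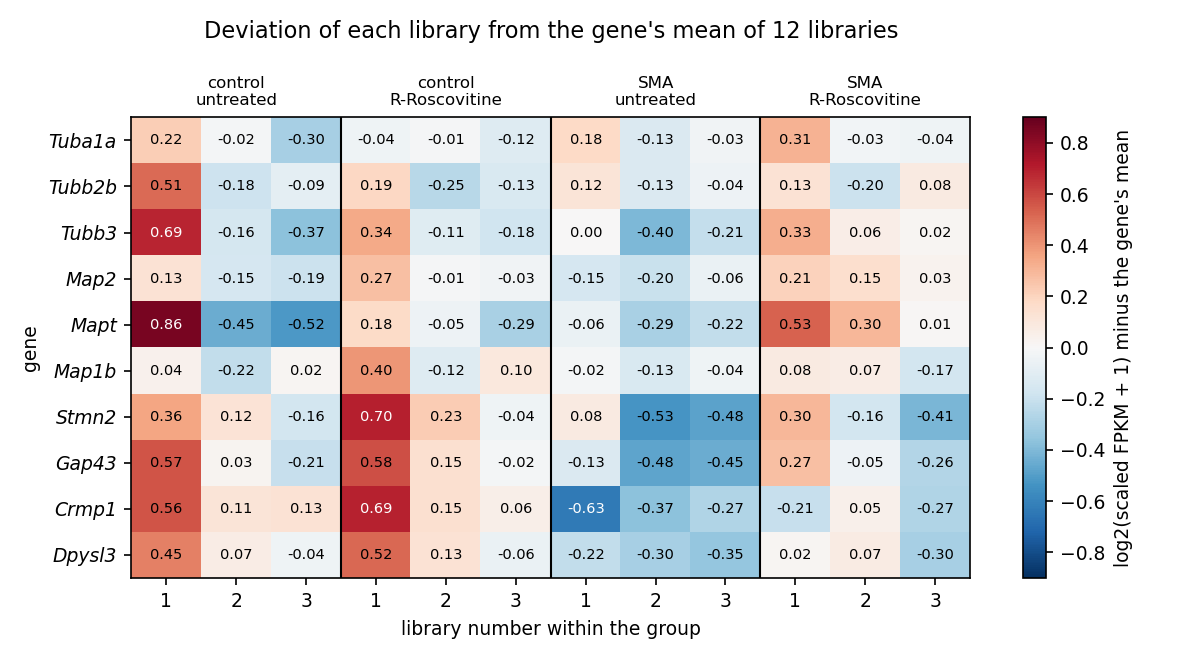
Deviation of each library from the gene's mean of 12 libraries, on the log2(scaled FPKM + 1) scale, for the 10 genes (rows) and the libraries of the 4 groups (columns). Mapt in untreated control library 1 was highest at 0.86, and Crmp1 in untreated SMA library 1 lowest at -0.63.

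With R-Roscovitine in both genotypes, fewer of the genes stood apart. Crmp1 read 140, 93.5 and 90.6 FPKM in the controls against 72.2, 89.2 and 70.6 FPKM in SMA, and it alone of the 10 kept SMA libraries below every control library. That held for 8.87% of all genes. Its log2 difference was -0.44 ± 0.18 (SE; limma adjusted p = 0.337). Stmn2 differed by -0.39, Dpysl3 by -0.27 and Gap43 by -0.25, with overlapping groups. Without control library 1 of both treatments these values were nearer 0, at -0.24 for Crmp1, -0.18 for Stmn2, -0.11 for Dpysl3 and -0.078 for Gap43, and the median of the 10 was 0.08. Mapt read 210, 176 and 153 FPKM in the controls against 260, 229 and 185 FPKM in SMA, a log2 difference of 0.33 ± 0.29 (SE; limma adjusted p = 0.652). Of the 10 genes, 5 read lower and 5 higher in SMA, with a median of -0.04 beside -0.02 over all genes, and none passed the adjusted threshold that 0.00667% of all genes passed. That share was 1.52% without treated SMA library 2, and none of the 10 genes was called there either.

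**Figure D3:**
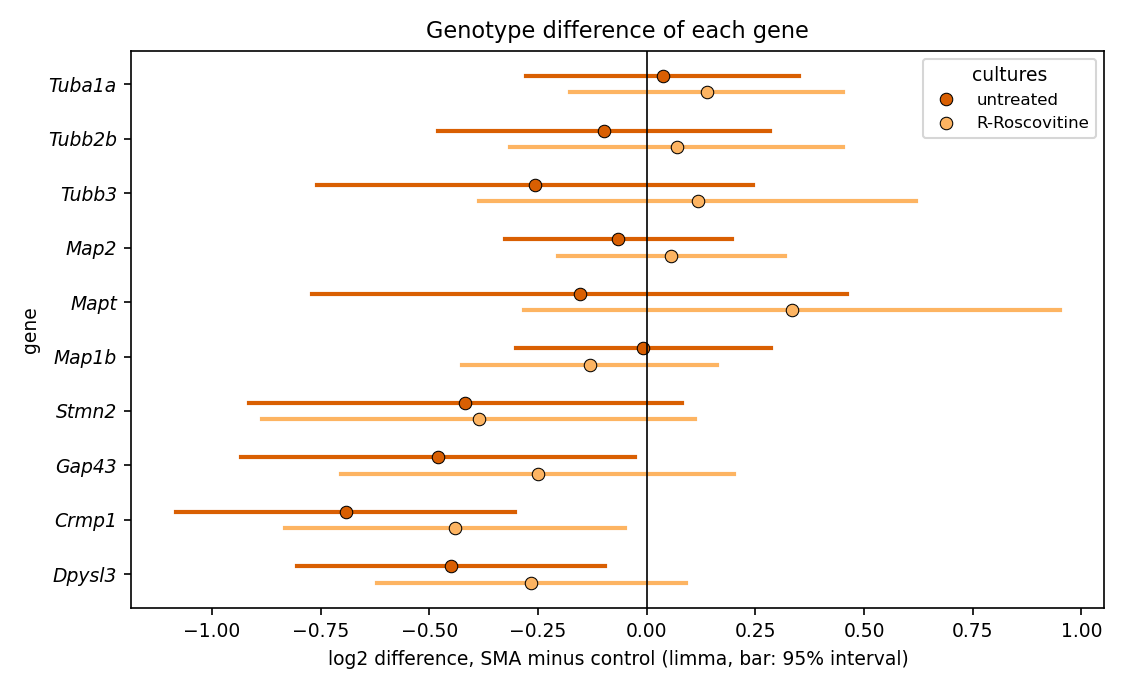
Log2 difference of SMA minus control for each gene, in untreated (dark) and R-Roscovitine-treated (light) cultures, with the 95% interval of limma. The intervals of Crmp1 lie below 0 in both, those of Dpysl3 and Gap43 in untreated cultures only, and the other genes' intervals include 0.

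Averaged over untreated and treated cultures, Crmp1 fell in SMA by 0.57 ± 0.13 on the log2 scale (SE; limma adjusted p = 0.0318) and was the only 1 of the 10 genes past the threshold, which 4.83% of all genes passed (1.8% lower and 3.03% higher). The SMA libraries spanned 53.4 to 89.2 FPKM and the control libraries 90.6 to 140 FPKM. This fit counts 12 independent libraries, although untreated and treated libraries of a number are paired within a genotype. With the pair as a random effect the adjusted p of Crmp1 was 0.0778, and with 1 mean per pair, 3 against 3, it was 0.189. The call was also lost when any of 7 libraries was left out: untreated control 1 or 2, treated control 1, untreated SMA 1 or 3, and treated SMA 1 or 3. Over these and the other 5 libraries left out in turn, the difference stayed between -0.63 and -0.47 and the adjusted p between 0.0164 and 0.0948. Dpysl3 (-0.36, adjusted p = 0.0930), Stmn2 (-0.40, adjusted p = 0.162) and Gap43 (-0.37, adjusted p = 0.161) did not pass, and the remaining genes lay between -0.07 and 0.09. Without control library 1 of both treatments, Crmp1 differed by -0.39 (adjusted p = 0.0701), Stmn2 by -0.24, Dpysl3 by -0.21 and Gap43 by -0.17.

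A start of Crmp1 is shown because Crmp1 is the single gene of the set that passed a test. RefSeq promoter windows, from 250 bases before to 50 after a start on GRCm38.p6, were found for 5 of the 10 genes, Map2, Crmp1, Tubb3, Map1b and Tuba1a, in 6 windows. The Crmp1 window below runs 5′ to 3′ on the plus strand, with capitals marking the 5 matches to the GC box GGGCGG on either strand, some of which overlap.
Crmp1, chr5:37241808-37242107: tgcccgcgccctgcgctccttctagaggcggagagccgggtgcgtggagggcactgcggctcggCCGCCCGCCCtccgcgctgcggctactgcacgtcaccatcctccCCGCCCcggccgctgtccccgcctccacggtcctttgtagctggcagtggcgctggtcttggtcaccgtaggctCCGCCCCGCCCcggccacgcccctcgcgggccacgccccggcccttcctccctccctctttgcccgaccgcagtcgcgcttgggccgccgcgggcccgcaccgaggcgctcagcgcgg

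The GC content of this window was 77.0%, and the 6 windows of the 5 genes ran from 59.0% to 77.7%, where the median of all 32851 windows was 52.7%. A second Crmp1 window, chr5:37245514-37245813, is not shown and had 61.0% GC and 2 GC boxes. Each of the 6 held at least 1 GC box, as did 35.7% of all windows. The left part of the binding site of REST, a repressor of neuronal genes outside neurons, written TTCAGCACC on either strand, was in none of the 6 and in 0.371% of all windows. These are matches of letters in a window and say nothing of binding.

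Markers shared by neurons in general read lower in SMA as well, while motoneuron markers lay on both sides of 0. Of the 20 pan-neuronal markers, 20 read lower in untreated SMA than in untreated control cultures, with a median log2 difference of -0.48, and 18 read lower with treatment, with a median of -0.19. Averaged over treatments, 3 of them passed limma's test, Nsg1, Syn1 and Ina, all lower, where 1.8% of all genes were called lower. Their summed level was 1356 to 2075 FPKM in untreated control, 1103 to 1188 in untreated SMA, 1413 to 2019 in treated control and 1250 to 1432 in treated SMA libraries. Of 10 tested motoneuron markers, 7 read lower and 3 higher in untreated SMA (median -0.07). With treatment, 5 read lower and 5 higher (median 0.02). Of 16 tested interneuron markers, 15 read lower in untreated SMA (median -0.51) and 12 with treatment (median -0.37). Averaged over treatments, 1 motoneuron and 2 interneuron markers passed, all lower. Markers of neural progenitors and astroglia read higher. Of 16 tested neural progenitor markers, 14 read higher in untreated SMA (median 0.77) and 10 passed the averaged test, and of 12 tested astroglial markers, 11 read higher (median 0.97) and 7 passed, where 3.03% of all genes were called higher. With the pair as a random effect, which called 0.427% of all genes, 2 progenitor, 2 astroglial and 0 pan-neuronal markers passed, and with 1 mean per pair none of these markers did. The summed astroglial level was 152 to 219 FPKM in control and 245 to 500 FPKM in SMA libraries, and the progenitor sums overlapped, with 2235 to 3695 and 3111 to 4091 FPKM. The part of the neuronal or glial share of the cultures in the differences of the 10 genes was not tested. When libraries were scaled on the pan-neuronal markers instead of on all genes, which moved the median of all genes by 0.41 in untreated cultures, 2 of the 10 genes, Crmp1 and Gap43, read lower in untreated SMA, and the averaged difference of Crmp1 was -0.22 (adjusted p = 0.257).

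**Figure D4:**
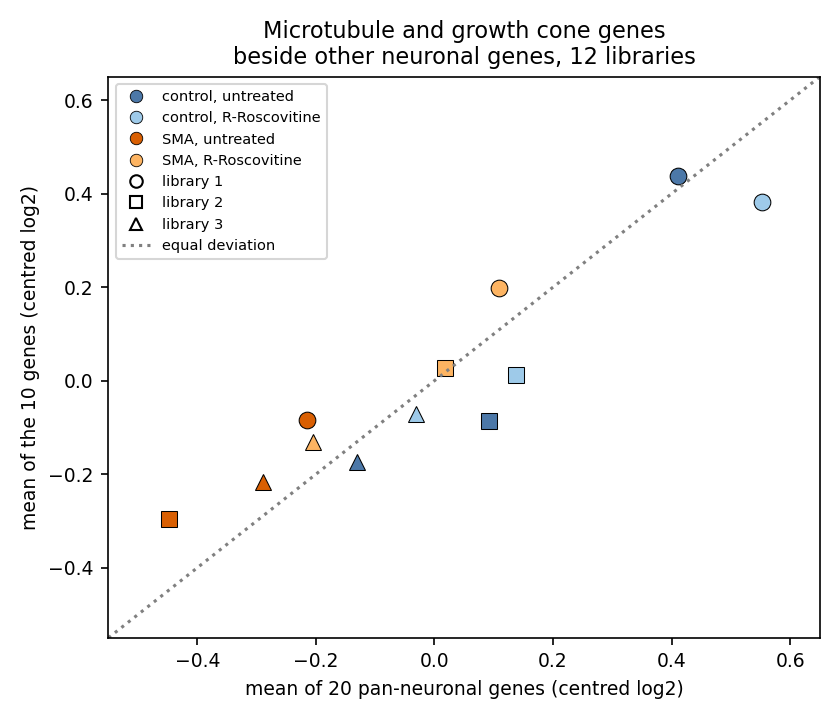
Mean deviation of the 10 genes (vertical axis) against that of 20 pan-neuronal markers (horizontal axis) in each of the 12 libraries, on the centred log2 scale; the dotted line marks equal deviation. Control library 1 is at the upper right, at 0.44 untreated and 0.38 treated on the vertical axis, and untreated SMA library 2 is lowest at -0.30.

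In SMA cultures all 10 genes read higher with R-Roscovitine (3 of the 10 with scaling on pan-neuronal markers, all 10 under every other scaling), but none passed the test. The largest differences were those of Mapt, at 140% of the untreated mean, Gap43 and Tubb3, both at 127%, Crmp1 at 122% and Map2 at 120%. Tuba1a, Map1b and Tubb2b stood at 106%, 104% and 102%. The median log2 difference of the 10 was 0.24 beside 0.00 over all genes tested. Without treated SMA library 1, 2 of the 10 genes read lower with the compound and the median was 0.19. Without untreated SMA library 2 or treated SMA library 3, 1 of the 10 read lower, with medians of 0.22 and 0.34. By limma no gene of the 14982 passed an adjusted p under 0.05 (0% called), and 360 had an unadjusted p under 0.05, 2.4% of all genes. Of the 10, Map2 was 1 of these. Standard errors and p-values of the treatment and interaction results leave out the pairing of untreated and treated libraries. With the pair as a block within genotype, no gene passed limma's adjusted threshold in any of these comparisons (0% called). Of the pan-neuronal markers, 19 of 20 read higher, with a median of 0.31, and their part in the values of the 10 genes was not tested.

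Mapt went from 173, 152 and 156 to 260, 229 and 185 FPKM in SMA libraries 1 to 3, and its treated and untreated libraries did not overlap. The log2 difference was 0.47 ± 0.29 (SE; limma adjusted p = 0.999). Map2 went from 237, 238 and 256 to 304, 302 and 274 FPKM, again without overlap, a log2 difference of 0.27 ± 0.12 (SE; limma adjusted p = 0.999). Tubb3 went from 118, 92.7 and 103 to 149, 127 and 122 FPKM, with no overlap, and Crmp1 from 53.4, 66.8 and 70.0 to 72.2, 89.2 and 70.6 FPKM, where treated library 3 stood just above the highest untreated library. Separate groups, higher with the compound, were thus seen in 4 of the 10 genes and in 6.17% of all genes. Gap43 overlapped, with 179, 148 and 126 treated against 135, 110 and 110 untreated FPKM. Within pairs of the same number, 8 of the 10 genes were higher with the compound in all 3 SMA pairs, which 19.4% of all genes were.

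In control cultures the differences at the same dose lay on both sides of 0, and their direction changed with the control library left out. The log2 values ran from -0.14 for Tubb2b to 0.19 for Stmn2, 6 of the 10 were higher, and the median was 0.03 beside 0.00 over all genes. No gene passed limma's adjusted threshold (0% called), 188 had an unadjusted p under 0.05 (1.25% of all genes), and none of the 10 was among them. No gene of the set had groups without overlap, higher with the compound, as 1.48% of all genes had. In control library 1, Mapt went from 349 to 210 FPKM and Tubb3 from 204 to 155 FPKM, while libraries 2 and 3 went from 134 and 132 to 176 and 153 FPKM for Mapt and from 108 and 96.6 to 111 and 109 FPKM for Tubb3. Without untreated control library 1 alone, all 10 genes read higher with the compound and the median was 0.24, as in SMA cultures. With treated control library 1 alone left out, 8 of the 10 read lower (median -0.09). With untreated control library 3 alone left out, 7 read lower (median -0.06). For any other control library left out, the median lay between -0.01 and 0.16. Without control library 1 of both treatments, 8 of the 10 read higher, the median was 0.11, and the difference of Mapt was 0.32 in place of -0.02. Map2 (308, 241 and 243 to 327, 264 and 268 FPKM) and Stmn2 (293, 237 and 202 to 359, 254 and 217 FPKM) were higher in each control pair, and they were the 2 genes of the set higher in all 6 pairs of both genotypes, as 2.06% of all genes were.

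**Figure D5:**
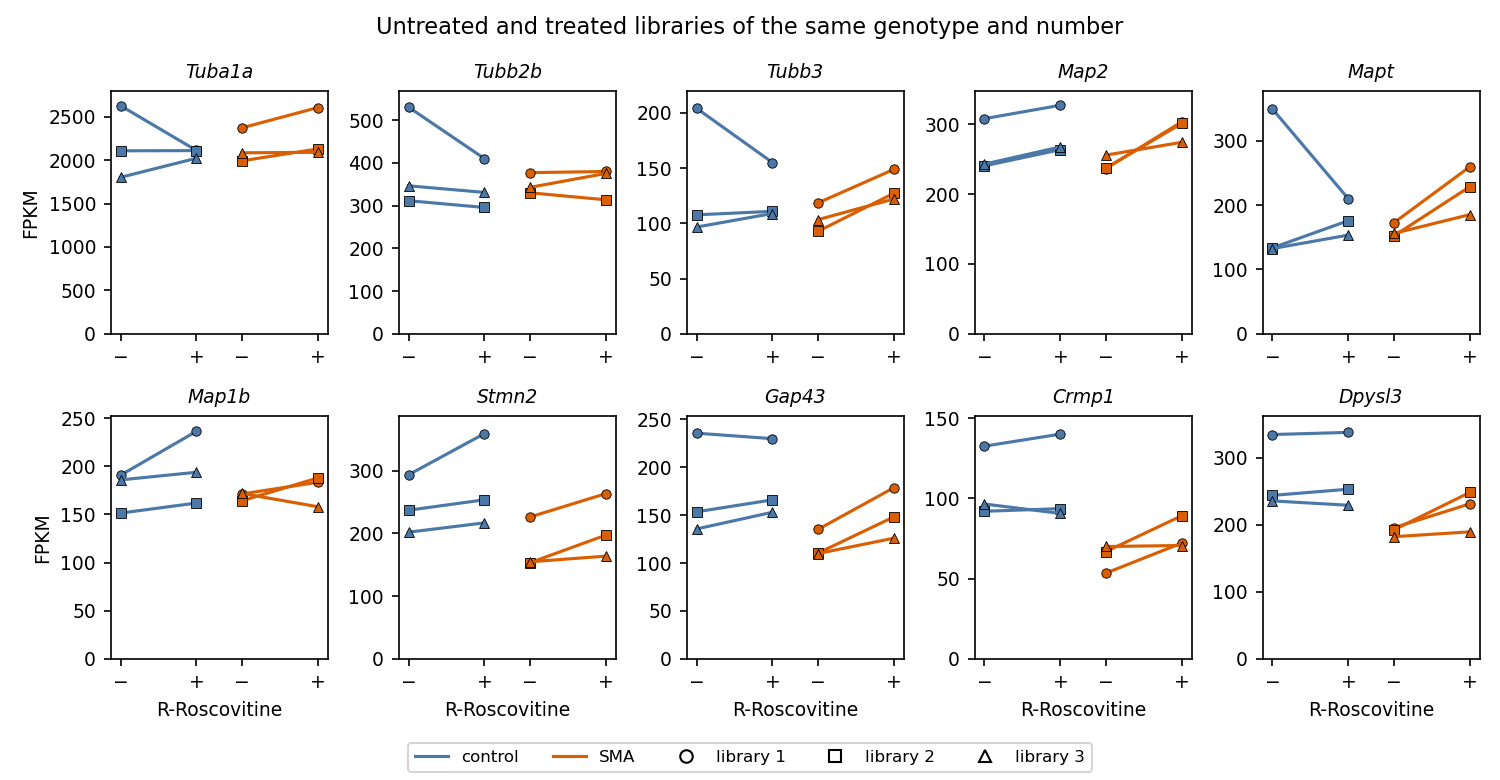
FPKM of each gene in untreated (−) and R-Roscovitine-treated (+) libraries, with lines joining libraries of the same genotype and number; vertical axes start at 0 and differ between panels. SMA lines (orange) of Mapt, Map2, Tubb3, Gap43, Crmp1, Dpysl3, Stmn2 and Tuba1a all slope upward, and the line of control library 1 (blue circles) slopes downward for Mapt, Tubb3, Tubb2b, Tuba1a and Gap43.

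The difference between the genotypes in their response was tested as an interaction and was not established for any gene. It ran from -0.12 ± 0.19 for Map1b to 0.49 ± 0.40 for Mapt (log2, SE), with a limma adjusted p of 0.9999 for all 10. No gene of the 14982 passed (0% called), and 286 had an unadjusted p under 0.05. The median interaction of the 10 genes was 0.18, and 0.14 without control library 1 of both treatments. With 1 library left out in turn, it ran from 0.015 (untreated control library 1) to 0.32 (treated control library 1). The 95% interval of the Mapt interaction, -0.38 to 1.36, shows how little 3 libraries a group resolve. Averaged over genotypes, treatment differences ran from -0.06 for Tubb2b to 0.23 for Mapt, and Map2 had 0.21 ± 0.09 (SE; limma adjusted p = 0.9999), where again no gene passed (0% called) and 244 had an unadjusted p under 0.05. Genotype and treatment comparisons share their libraries, so a low untreated SMA group enters both.

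Likeness of pattern over the 12 libraries was measured as the root mean square difference of centred log2 values. For every member the nearest gene of all lay outside the set. Stmn2 and Gap43 were each other's nearest member, at 0.117. Of 14981 genes, Gap43 was at rank 14 from Stmn2, and Stmn2 at rank 30 from Gap43. Mapt and Tubb3 were 0.156 apart, with Tubb3 at rank 2 from Mapt and Mapt at rank 76 from Tubb3. Map2 and Map1b were 0.125 apart, at rank 140 from Map2 and 225 from Map1b. Crmp1 had Dpysl3 as its nearest member, at rank 72, and Dpysl3 had Gap43, at rank 131. Tuba1a and Tubb2b lay farther from the set, their nearest members at rank 744 and 468. The 5 genes outside the set most like its mean profile were Jph4, Olfm1, Hcn4, Plxna4 and Nicn1, at 0.059 to 0.074. This likeness is a description over libraries that differ in genotype, treatment and summed level of pan-neuronal markers, and its source was not tested.

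Other genes of the same machinery were read from 7 lists with 124 tested genes. None of them passed limma's test in any comparison within 1 treatment or genotype. Averaged over treatments, 5 were lower and 1 higher in SMA, while 91 read lower and 33 higher, with a median of -0.15 beside -0.01 over all genes. Over all genes, 1.8% were called lower and 3.03% higher. Among 13 microtubule-associated proteins, 2 passed, both lower: Map6, which encodes a protein of cold-stable microtubules (-0.55 ± 0.13, SE; adjusted p = 0.0339), and Map7d2, a relative of the kinesin-1 cofactor Map7 (-0.56 ± 0.12, SE; adjusted p = 0.0304). Dcx and Map4, the most abundant of that list, differed by -0.27 and -0.25 and did not pass.

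Of 20 genes for proteins of microtubule ends, Mapre2, an EB family protein of plus ends (-0.41, adjusted p = 0.0327), and Camsap1, which binds minus ends (-0.43, adjusted p = 0.0434), fell in SMA. In the list of tubulin folding, severing and modification, with 27 tested genes, Ttll1, part of a tubulin polyglutamylase, fell (-0.50, adjusted p = 0.0380) and Tbcel, a relative of tubulin cofactor E, rose (0.41, adjusted p = 0.0453). Like that of Crmp1, these calls treat paired libraries as independent. With the pair as a random effect none of the 6 passed, and their limma adjusted p ran from 0.0765 for Map7d2 to 0.137 for Camsap1. None of the other 12 tubulins passed, and Tubb5 and Tuba1b, the most abundant, differed by -0.07 and 0.17. None of 6 further stathmins and CRMPs passed. Stmn1 (0.03) and Stmn3 (-0.31) lay on either side of 0.

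None of 27 growth cone membrane and actin genes passed, among them Actb (-0.25) and Actg1 (-0.33), and 20 of the 27 read lower in SMA. None of the 19 genes listed under kinases and phosphatases of microtubule-associated proteins passed either. Gsk3a differed by -0.10, and Tpx2, on the list although itself neither kinase nor phosphatase, by 0.05. Cdk5 and its activators Cdk5r1 and Cdk5r2 are named because R-Roscovitine inhibits Cdk5, not by the rule for named genes. Cdk5 itself read 12.8 to 19.8 FPKM over the 12 libraries. With the compound, Cdk5 differed by -0.06 in control and 0.12 in SMA cultures, Cdk5r1 by -0.03 and 0.49, and Cdk5r2 by 0.13 and 0.43, none past the threshold (limma adjusted p = 0.9997 in control and 0.9989 in SMA).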

How the data were processed

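The authors deposited FPKM per gene for 12 libraries. Per the submitters' processing notes, the build was GRCm38 and the tools were Cufflinks 2.2.1, Trim Galore 0.4.0 and FastQC 0.10.1; per the labels' protocols, RNA was extracted with a Nucleospin kit and libraries were made with a Lexogen mRNA kit. For the aligner, read length, strand and annotation, settings are not given in the sources used. FPKM of the 19 identifiers on several lines were summed.

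FPKM were divided by median-of-ratios factors (0.972 to 1.04) and taken as log2(scaled FPKM + 1), a scale that understates the change of low genes. Genes at 1 FPKM or more in at least 3 libraries were tested, and 132 small RNA genes were left out. limma 3.58.1 in R 4.3.3 (lmFit, eBayes with trend, two-sided) was fitted to 4 group means over 12 libraries, for 7 comparisons, with Benjamini-Hochberg adjustment over all 14982 genes and a threshold of 0.05. The fit was tested on simulated data. Cufflinks marked 2 to 8 values per library as not OK, none of them in the 10 genes. Depth came from the common step of low FPKM in short genes; 35.8% to 39.2% of low values were whole multiples of it within 0.01, so no counts were recovered and no count model was used.

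Deviations from group means correlated between untreated and treated libraries of the same genotype and number (0.237 to 0.596), and each of the 6 matched its own number best. These libraries were therefore taken as paired within a genotype. The main fit has no term for the pair, which enters only in the alternatives. Across genotypes the correlations were -0.057 to 0.305 and 4 of 6 matched their own number best, so libraries were not taken as paired there. No 2 libraries held the same values. The members and lists were chosen with earlier results of these data known. Named list genes are those past the threshold, up to 5 a list, and the 2 most abundant of each list; genes alike in pattern are the 5 nearest to the mean profile. Sequences are from GENCODE M21 and RefSeq. Sequences of the alpha tubulins are not reported here. Python 3.11.15, pandas 2.3.3, Biopython 1.88 and matplotlib 3.10.9 were used. Alternatives were another pseudocount, filter, scaling, library weights, pairing and libraries left out.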

Additional observations from a re-analysis of the deposited data

How the results depend on the processing

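The limits of these data are few libraries, unknown culture origin of the libraries, and control library 1, which was high for all 10 genes. Of 1620 values of the 70 member results under the alternatives, 1559 kept their direction, or stayed within 1 SE of 0, and their side of the threshold. The number of the 10 genes called in the averaged genotype comparison went from 1 to 0 with no filter on low values (Crmp1 adjusted p = 0.0974), with scaling on pan-neuronal genes, with the replicate block within genotype as a random effect, with 1 mean per pair, and without control library 1 of both treatments (Crmp1 -0.39, adjusted p = 0.0701), and it was 0 to 1 with 1 library left out in turn. Calls over all genes in that comparison, 723, went to 1 with no filter or with pair means, 64 with the random effect, 2017 with library weights, 1772 with the replicate block or with scaling on pan-neuronal genes, 60 without control library 1, 1258 without SMA library 2 of both treatments, and 6 to 1362 with 1 library left out. The cause was not tested.

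With the replicate number 1 to 3 as a block over all libraries, a replicate block although libraries were not taken as paired across genotypes (library 1 had the highest mean of the 10 genes within each of the 4 groups), 4 of the 10 genes were called in the averaged comparison (Stmn2 adjusted p = 0.00677, Gap43 0.0104, Crmp1 0.0157 and Dpysl3 0.0182) and 1 in the untreated comparison (Gap43 adjusted p = 0.0424). Over all genes in the averaged comparison, the block called 11.8%. In the untreated comparison, library weights called 1 of the 10 genes as well (Crmp1 limma adjusted p = 0.0491). Over all genes in the untreated comparison, 327 (2.18%) were called with the block and 458 (3.06%) with weights, against 1 as reported, 26 with scaling on pan-neuronal genes, 142 without SMA library 2 of both treatments, 2 without control library 1 and 1 to 4 with 1 library left out. In the treated comparison the count of 1 went to 252 with the block, 16 with weights, 4 with scaling on pan-neuronal genes, 258 without SMA library 2, 2 without control library 1 and 1 to 228 with 1 library left out, and none of the 10 genes was called. The block within genotype changed no call of a member in the treatment comparisons.

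Directions that turned stand here as log2 differences. With scaling on pan-neuronal genes, whose construction shifts every gene, the untreated genotype difference was 0.21 for Tubb3, 0.37 for Tubb2b, 0.40 for Map2, 0.31 for Mapt, 0.46 for Map1b, 0.050 for Stmn2 and 0.018 for Dpysl3, and the treated one was 0.10 for Map1b. The averaged genotype difference was 0.28 for Tubb3, 0.33 for Tubb2b, 0.34 for Map2 and 0.28 for Map1b. The treatment difference in SMA was -0.23 for Tuba1a, -0.28 for Tubb2b, -0.038 for Map2, -0.25 for Map1b, -0.084 for Stmn2, -0.018 for Crmp1 and -0.084 for Dpysl3. The interaction was -0.14 for Tuba1a, -0.12 for Map2 and -0.055 for Dpysl3, and the averaged treatment difference -0.031 for Tubb3, -0.16 for Tuba1a, -0.065 for Map1b, -0.026 for Crmp1 and -0.057 for Dpysl3. Without control library 1 of both treatments, the untreated difference was 0.060 for Tubb3, 0.12 for Tubb2b and 0.29 for Mapt, the averaged one 0.17 for Tubb3, 0.16 for Tubb2b and 0.095 for Map2, and the treatment difference in control 0.32 for Mapt. Quantile normalization gave Tuba1a -0.039 in treated and -0.061 in averaged cultures, and library weights gave Mapt 0.14 in untreated cultures. With 1 library left out in turn, the untreated difference ran from -0.47 to 0.060 for Tubb3, -0.23 to 0.12 for Tubb2b and -0.39 to 0.29 for Mapt, and the treatment difference in control from -0.25 to 0.28 for Tubb3, -0.28 to 0.070 for Tubb2b, -0.26 to 0.43 for Mapt and -0.17 to 0.18 for Crmp1. None of these passed the threshold, and the cause was not tested beyond the settings named.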
